A study of Saccharomyces cerevisiae with 8 samples.

Results

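Untreated grr1-deficient yeast was compared with tunicamycin-treated wild-type (WT) yeast, to show which parts of the treated WT state the untreated mutant already carried and which it lacked. The comparison used 4 of the 8 RNA-seq libraries of the series, chosen by their labels alone. They were 2 libraries of the grr1-deficient genotype at 0 h of tunicamycin, and 2 of the WT genotype after 4 h at 1 µg/ml. The 2 WT libraries at 0 h are given beside them as the untreated state of the same strain background. All cells were of the W303 strain of Saccharomyces cerevisiae, cultured at 30 °C in SC medium that held 2% glucose, and the drug was added at an OD600 of 0.2. How the grr1 allele was made, and whether its 2 libraries came from 1 clone, are not given in the sources used here. The 2 main groups differ in genotype, in drug and in time in culture together, and these cannot be told apart in any difference between them.

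Tunicamycin inhibits the enzyme that starts N-glycan assembly, so unfolded glycoproteins collect in the endoplasmic reticulum (ER). The membrane sensor Ire1 then splices HAC1 mRNA, and the Hac1 protein switches on the unfolded protein response (UPR), a set of genes for ER folding, degradation and traffic. Grr1 is the F-box subunit that brings targets to an SCF ubiquitin ligase. It is best known in yeast for glucose induction of hexose transporter genes, for amino acid sensing through the SPS pathway, and for turnover of G1 cyclins. The series title also links Grr1 to the deubiquitinase Ubp3, which works with its cofactor Bre5.

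GRR1, which lies on chromosome X of build R64 from 590872 to 594327 (YJR090C), was covered by 2 and 3 reads in untreated grr1-deficient cells, against 1794 and 1829 reads in the treated WT libraries. Scaled to depth, it was 428-fold lower in the mutant, with an exact 95% counting interval of 183 to 1320.0. The mutant libraries held 8256539 and 4885844 gene reads, the treated WT libraries 8360928 and 8871653, and the untreated WT libraries 12119744 and 12083581. Replicate 2 of the mutant stood apart. Its 7 marker transcripts of the mitochondrial genome summed to 43 reads, against 230240 in mutant replicate 1, 117404 and 128762 in treated WT, and 65972 and 60502 in untreated WT. Over all 28 mitochondrial regions it held 18860 reads, and 192 without the region Q0092. For some genes and lists whose mutant libraries differed, results are therefore also given without this library. The 5 MATa markers summed to between 2574 and 13289 reads in these 6 libraries, and the 4 MATalpha markers to between 98 and 357. Levels below are CPM, read counts scaled to a common library size by TMM, given per library in replicate order or as mean ± SD of 2 libraries. Differences are log2 values, untreated mutant minus treated WT unless stated, with the adjusted p of edgeR's quasi-likelihood test. The standard error (SE) was derived from that test, as the absolute log2 difference divided by the square root of its F statistic.

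Of 5855 genes tested, 1744 (29.8%) were higher and 1669 (28.5%) lower in the untreated mutant than in treated WT at an adjusted p under 0.05, which is 58.3% in either direction. Of these, 1050 were more than 2-fold higher and 710 more than 2-fold lower. For 2562 genes (43.8%) the 95% interval of the difference lay wholly within 2-fold either way, which is the measure of likeness used below. A gene can be both called and within 2-fold, so these counts overlap. Counts of list members below are to be read against these shares of all genes. The 2 groups' libraries did not overlap for 2296 genes (39.2%) that were higher and 2409 (41.1%) that were lower in the mutant. The split of calls depends on the scaling. Scaled to total counts in place of TMM, the median difference over all genes was -0.34 log2, and 1184 genes were higher and 2368 lower, so differences are read relative to that shift. Between treated and untreated WT, 1905 genes (32.5%) were higher and 1936 (33.1%) lower with treatment, 65.6% in all. Between untreated mutant and untreated WT, 1316 (22.5%) were higher and 1595 (27.2%) lower in the mutant, 49.7% in all. With total counts their medians were 0.78 and 0.34 log2. These 2 comparisons share libraries with the main one, so their values are set beside it as context and not as independent evidence.

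**Figure D1:**
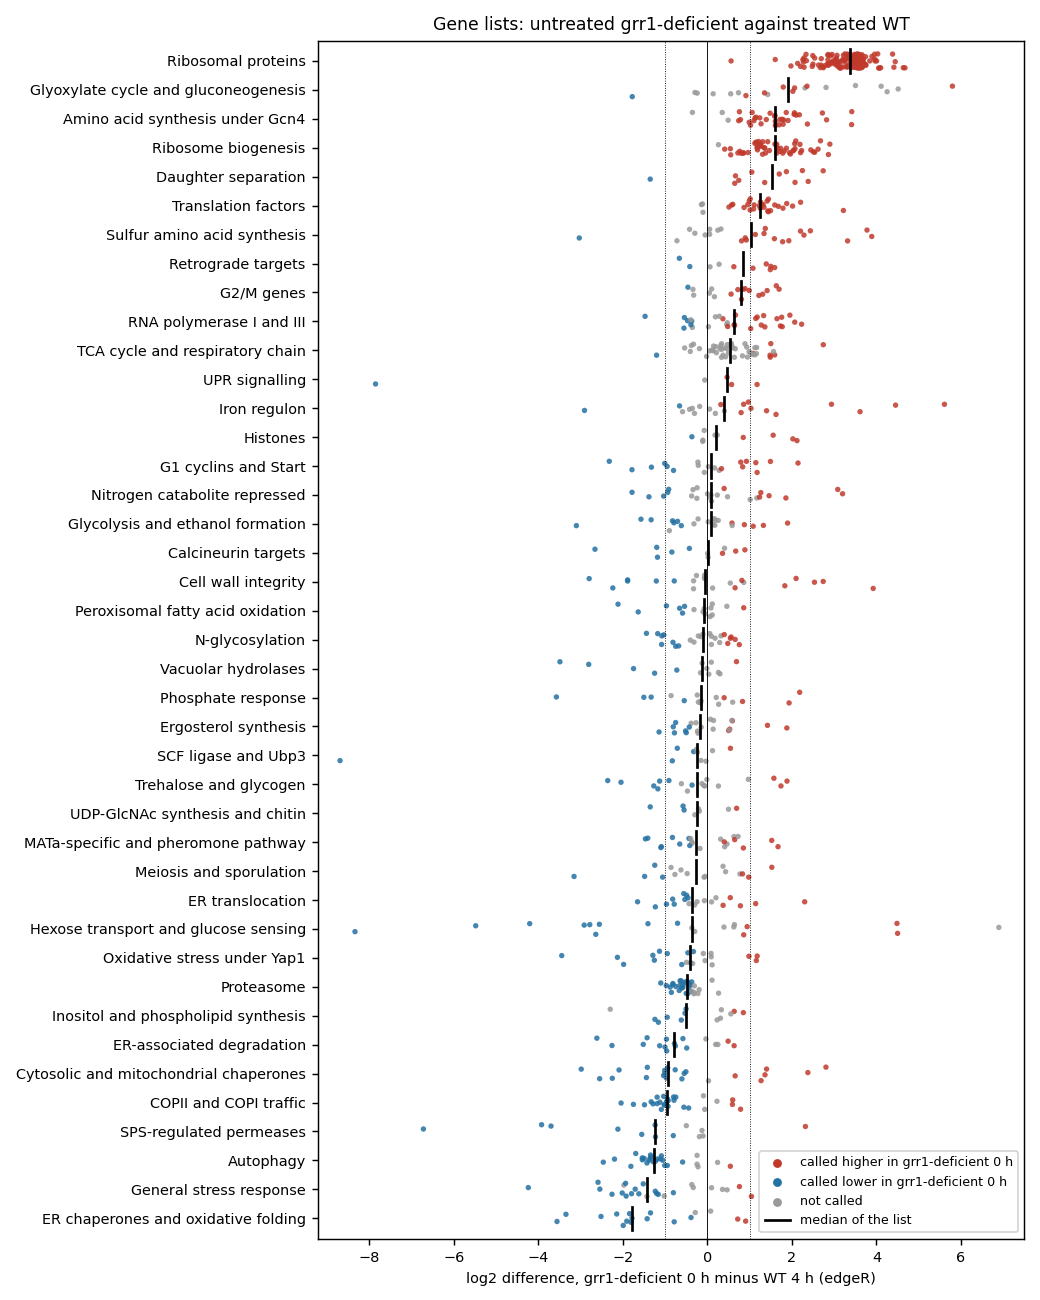
Log2 difference of each tested member of 41 gene lists between untreated grr1-deficient cells and WT after 4 h of tunicamycin (x axis, edgeR), with lists ordered by their median (black bar) from the highest at the top. Points are genes, red where called higher in the mutant, blue where called lower and grey where not called, and dotted lines mark 2-fold; ribosomal proteins sit at the top with a median of 3.38 and ER chaperones at the bottom with -1.78.

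The genes of the ER folding machinery were mostly lower in the untreated mutant than in treated WT. Of 17 genes for ER chaperones and oxidative folding, 13 were lower and 2 higher in the mutant, with a median difference of -1.78 log2, against 6.14e-05 over all genes tested. Their medians were 1.17 for treated against untreated WT and -0.28 for untreated mutant against untreated WT. The list took 0.217% and 0.277% of gene reads in the mutant libraries, against 1.29% and 1.13% in treated WT and 0.222% and 0.226% in untreated WT.

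KAR2, the Hsp70 chaperone of the ER lumen, had 776 and 853 CPM in the untreated mutant, against 4988 and 4332 CPM in treated WT and 1079 and 982 CPM in untreated WT. Both mutant libraries lay far below treated WT with no overlap, and the difference from untreated WT was not called (-0.34 log2, adjusted p = 0.155). The difference from treated WT was -2.52 ± 0.19 log2 (adjusted p = 1.61e-05). ERO1, the thiol oxidase that drives disulfide formation, had 54.7 and 92.2 CPM in the mutant, against 929 and 799 CPM in treated WT and 97.7 and 92.4 CPM in untreated WT. Its difference from treated WT was -3.56 ± 0.26 log2 (adjusted p = 1.35e-05), the largest in the list. SIL1, the nucleotide exchange factor of Kar2, had 62.9 and 62.9 CPM in the mutant, against 640.4 and 639 CPM in treated WT, and its difference was -3.35 ± 0.14 log2. PDI1, protein disulfide isomerase, had 308 and 305 CPM in the mutant, against 1339 and 1094 CPM in treated WT and 478 and 552 CPM in untreated WT. Its mutant libraries thus lay below both WT groups, by -1.99 ± 0.19 log2 against treated WT and -0.75 log2 against untreated WT (adjusted p = 4.89e-05 and 0.00959).

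A few members of the folding list did not follow. LHS1, a second nucleotide exchange factor of Kar2, had 274 and 231 CPM in the mutant, against 298 and 317 CPM in treated WT and 214 and 211 CPM in untreated WT. It was only 0.53 log2 higher in treated than in untreated WT, and the mutant's difference from untreated WT was not called (0.25). Against treated WT, its 95% interval of -0.60 to 0.03 log2 lay within 2-fold. It was called lower with total counts (-0.63) and without mutant replicate 1 (-0.41). ROT1 had 226 and 277 CPM in the mutant, against 239 and 237 CPM in treated WT and 179 and 168 CPM in untreated WT. Its interval against treated WT lay within 2-fold. It was the 1 member called higher in the mutant than in untreated WT (0.53 log2, adjusted p = 0.00998). The 2 members that were higher in the mutant than in treated WT, named after their values were seen, were EPS1, a disulfide isomerase family member, and CNE1, the yeast calnexin. EPS1 averaged 98.1 ± 1.09 CPM in the mutant, against 52.3 ± 2.05 CPM in treated WT and 113 ± 3.61 CPM in untreated WT. CNE1 averaged 34.8 ± 3.32 CPM in the mutant, against 21.1 ± 0.328 CPM in treated WT, and it was no longer called when total counts replaced TMM.

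The unfolded protein response element is bound by Hac1, and its core CAGCGTG was looked for on both strands of the 300 bases before the start codon of each gene. Of 17 folding genes, 2 held it (11.8%), against 1.26% of 5648 promoters of tested genes; no match says only that these letters were not in the window. Both are shown because their differences from treated WT were unlike in size, -2.52 log2 for KAR2 and -0.29 for LHS1. The windows are from the R64 RefSeq genome, 5′ to 3′ on the gene's strand with the match in capitals, KAR2 at chrX:381157-381183 (+) and LHS1 at chrXI:296321-296347 (+), where LHS1 carries the reverse complement.
KAR2: aggaactggaCAGCGTGtcgaaaaagt
LHS1: taatatcgaaCACGCTGttataaaagt

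**Figure D2:**
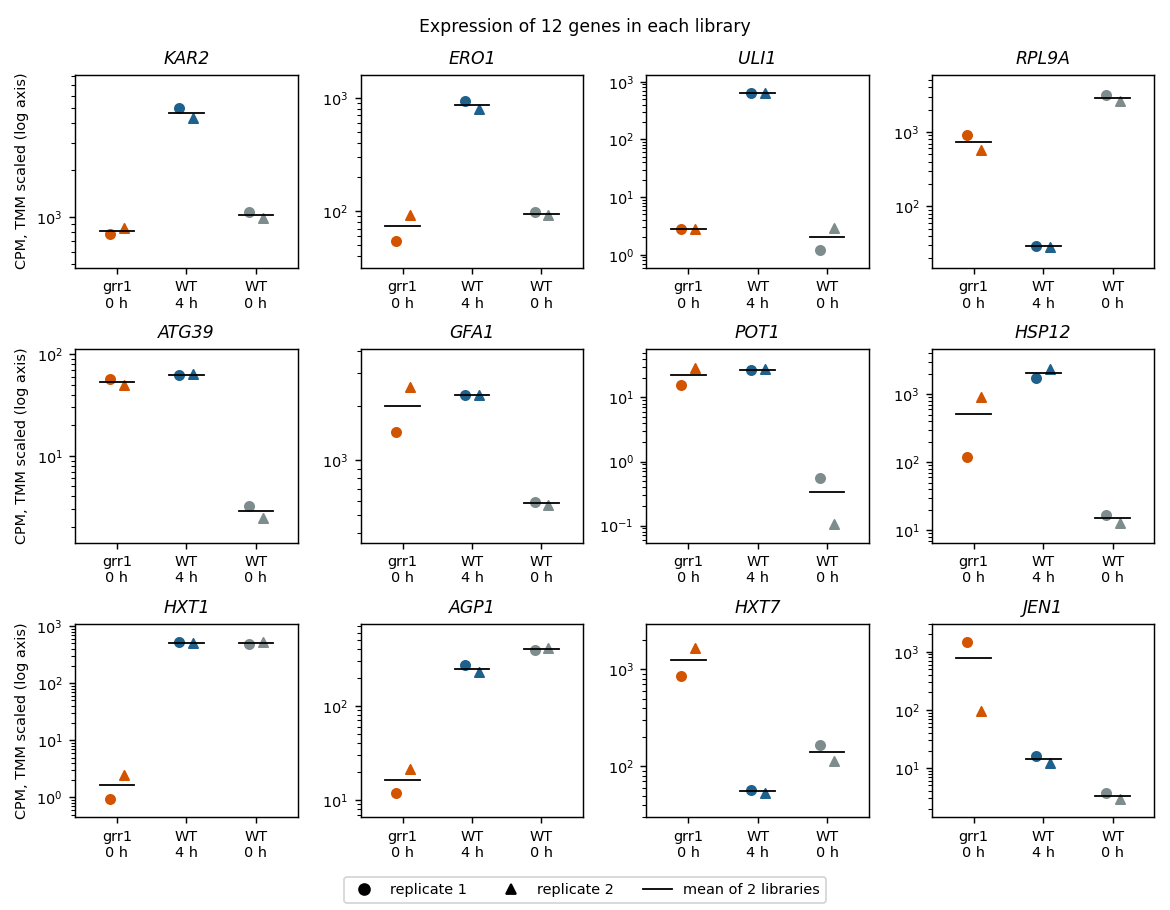
CPM, TMM scaled, on log axes for 12 genes in untreated grr1-deficient cells, WT after 4 h of tunicamycin and untreated WT, with a circle for replicate 1, a triangle for replicate 2 and a line for the mean. KAR2, ERO1 and ULI1 in the mutant lie near untreated WT, ATG39, GFA1 and POT1 near treated WT, RPL9A and HSP12 between the 2 WT groups, and HXT1, AGP1, HXT7 and JEN1 outside both.

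Of 5 UPR signalling genes, 3 were higher and 1 lower in the untreated mutant, and 1 was higher with total counts or without treated WT replicate 1. HAC1 had 1346 and 1131 CPM in the mutant, against 1359 and 1226 CPM in treated WT and 1199 and 1128 CPM in untreated WT. The mutant and treated WT libraries overlapped, and treated against untreated WT was not called either (0.15 log2). The difference of HAC1 between mutant and treated WT was -0.06 ± 0.19 log2 with a 95% interval of -0.51 to 0.38. Its spliced and unspliced forms cannot be told apart in these counts. IRE1 had 93.5 and 84.8 CPM in the mutant, against 65.4 and 63.8 CPM in treated WT, a difference of 0.47 ± 0.14 log2 (adjusted p = 0.0199) that was lost in 4 of 17 alternatives. These were total counts (0.12) and leaving out mutant replicate 1 (0.40) or treated WT replicate 1 or 2 (0.49 and 0.45). In untreated WT, IRE1 had 77.4 and 98.6 CPM, and the mutant's difference from that was 0.02 log2, not called. PTC2, a phosphatase that acts against Ire1, averaged 69.1 ± 1.04 CPM in the mutant, against 30.6 ± 6.45 CPM in treated WT and 109 ± 2.75 CPM in untreated WT. ULI1, a gene known for its induction by the UPR, was the lower member, with 2.78 and 2.80 CPM in the mutant, against 645 and 649 CPM in treated WT and 1.22 and 2.91 CPM in untreated WT. The difference was -7.85 ± 0.46 log2 (adjusted p = 1.34e-05).

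Among 10 genes of the SCF ligase and the Ubp3 complex, 4 were lower, GRR1 included, and 1 higher in the untreated mutant. UBP3 had 69.7 and 48.7 CPM in the mutant, against 58.7 and 62.8 CPM in treated WT, and its 95% interval was -0.46 to 0.39 log2. BRE5 had 93.3 and 89.6 CPM in the mutant, against 63.9 and 61.4 CPM in treated WT and 119 and 138 CPM in untreated WT, a difference from treated WT of 0.55 ± 0.14 log2 that was not called with total counts (0.21) or without treated WT replicate 1 or 2 (0.58 and 0.52). MET30, another F-box gene, averaged 39.5 ± 1.39 CPM in the mutant, against 70.2 ± 2.68 CPM in treated WT and 39.8 ± 2.08 CPM in untreated WT.

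ER-associated degradation (ERAD), which moves misfolded proteins to the proteasome, was also lower in the untreated mutant. Of 17 ERAD genes, 12 were lower and 2 higher (0 higher with total counts or without treated WT replicate 2, and 1 without mutant replicate 1), with medians of -0.78 log2 against treated WT and -0.16 against untreated WT. DER1, a channel component for luminal substrates, had 28.5 and 34.4 CPM in the mutant, against 184 and 199.9 CPM in treated WT and 30.5 and 26.5 CPM in untreated WT. Its difference from treated WT was -2.61 ± 0.17 log2 (adjusted p = 7.03e-06), and the mutant libraries lay at or slightly above the untreated WT level. DFM1, its homolog, had 55.5 and 58.8 CPM in the mutant, against 275 and 271 CPM in treated WT and 58.6 and 59.5 CPM in untreated WT. Of 32 proteasome genes, 24 were lower and none higher in the mutant, but 25 of the 32 had an interval within 2-fold and the median was -0.49 log2. Without treated WT replicate 2, 14 were called lower. The proteasome base ATPase gene RPT3 had the largest called difference, with 162 and 181 CPM in the mutant, against 354 and 382 CPM in treated WT.

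Coat and cargo genes of secretory traffic were mostly lower in the mutant, while N-glycosylation genes were divided. Of 28 COPII and COPI coat and cargo genes, 22 were lower and 3 higher in the mutant, with a median of -0.95 log2. ERV29, a cargo receptor for soluble proteins, had 206 and 202 CPM in the mutant, against 798 and 879 CPM in treated WT and 212 and 211 CPM in untreated WT. SFB2, a Sec24 paralog, averaged 119 ± 3.08 CPM in the mutant, against 402 ± 5.50 CPM in treated WT. Of 25 N-glycosylation genes, 8 were lower and 6 higher, shares close to those of all genes, and 17 had an interval within 2-fold, though with total counts 12 were lower and 1 higher. Against untreated WT, 16 were lower and 0 higher in the mutant (median -0.48 log2), and 13 were lower and 6 higher in treated WT (-0.42). OST1, within 2-fold of treated WT, had 200 and 193 CPM in the mutant, against 167 and 154 CPM in treated WT and 393 and 382 CPM in untreated WT. ALG7, the enzyme that tunicamycin inhibits, had 49.4 and 45.2 CPM in the mutant, against 123 and 91.3 CPM in treated WT and 78.5 and 68.8 CPM in untreated WT, a difference of -1.17 ± 0.16 log2 (adjusted p = 0.000375). SWP1, a subunit of oligosaccharyltransferase, averaged 69.5 ± 7.41 CPM in the mutant, against 189 ± 13.6 CPM in treated WT and 142 ± 5.91 CPM in untreated WT. Of 20 tested genes for ER translocation, 9 were lower, SEC72 by 1.65 log2, and 5 were higher.

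Of 22 cell wall integrity genes, 6 were lower and 7 higher in the mutant than in treated WT, shares close to those of all genes, while 14 of the 22 were higher in the mutant than in untreated WT. Without treated WT replicate 2, 4 were called higher than treated WT. GSC2, a stress-induced glucan synthase subunit, had 163 and 672 CPM in the mutant, against 3055 and 2748 CPM in treated WT and 54.6 and 57.6 CPM in untreated WT. Both mutant libraries lay between the 2 WT groups, although they differed from each other, and the difference from treated WT was -2.80 ± 0.64 log2 (adjusted p = 0.00918), which was not called in a fit of the 2 groups alone (adjusted p = 0.051). YPS1, a cell surface aspartyl protease, had 125 and 111 CPM in the mutant, against 464 and 407 CPM in treated WT and 60.4 and 55.7 CPM in untreated WT, again between. CWP1, a mannoprotein, went the other way, with 147 and 183 CPM in the mutant, against 11.9 and 9.82 CPM in treated WT and 74.3 and 57.7 CPM in untreated WT. Of 11 calcineurin targets, 5 were lower, 3 were higher and 5 had an interval within 2-fold, with a median of 0.006 log2. None was higher with total counts or without treated WT replicate 2, and 1 was without treated WT replicate 1 or mutant replicate 2. Among the lower, CMK2, a calmodulin-dependent kinase, averaged 57.8 ± 18.6 CPM in the mutant, against 364 ± 9.73 CPM in treated WT and 36.7 ± 3.63 CPM in untreated WT.

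Of 8 genes of UDP-GlcNAc and chitin synthesis, 5 had an interval within 2-fold of treated WT, 3 were lower and 1 was higher. GFA1, the first enzyme of UDP-GlcNAc synthesis, had 1436 and 2518 CPM in the untreated mutant, against 2292 and 2276 CPM in treated WT and 595 and 573 CPM in untreated WT. The mutant libraries spanned the treated WT values, and both lay above untreated WT, by 1.76 log2 (adjusted p = 0.00132). The difference from treated WT was -0.21 log2 with a 95% interval of -0.83 to 0.42, and without mutant replicate 2 it was called at -0.67 (adjusted p = 0.024). CHS1, the chitin synthase of septum repair, was not at the treated level, with 201 and 175 CPM in the mutant, against 497 and 463 CPM in treated WT and 179 and 184 CPM in untreated WT.

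Genes for making ribosomes lay between the 2 WT states. All 135 tested ribosomal protein genes were higher in the untreated mutant than in treated WT, by 0.56 to 4.67 log2 with a median of 3.38. Against untreated WT, 129 of the 135 were lower in the mutant, with a median of -1.24, and all 135 were lower in treated than in untreated WT, with a median of -4.60. They took 13.7% and 13.5% of gene reads in the mutant libraries, against 1.82% and 1.79% in treated WT and 24.7% and 23.2% in untreated WT. The share is a part of each library, so it also moves with every other abundant transcript. RPL9A had 907 and 571 CPM in the mutant, against 29.6 and 28.3 CPM in treated WT and 3124 and 2621 CPM in untreated WT, and RPL17A had 1999 and 1522 CPM in the mutant, against 73.9 and 67.8 CPM in treated WT and 2094 and 2069.8 CPM in untreated WT. RPL9A was thus between the 2 WT groups in both mutant libraries, and RPL17A did not differ from untreated WT beyond the test's threshold (-0.24 log2, adjusted p = 0.325). Many ribosomal protein genes have near-identical copies, so the split of reads within a pair is uncertain.

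**Figure D3:**
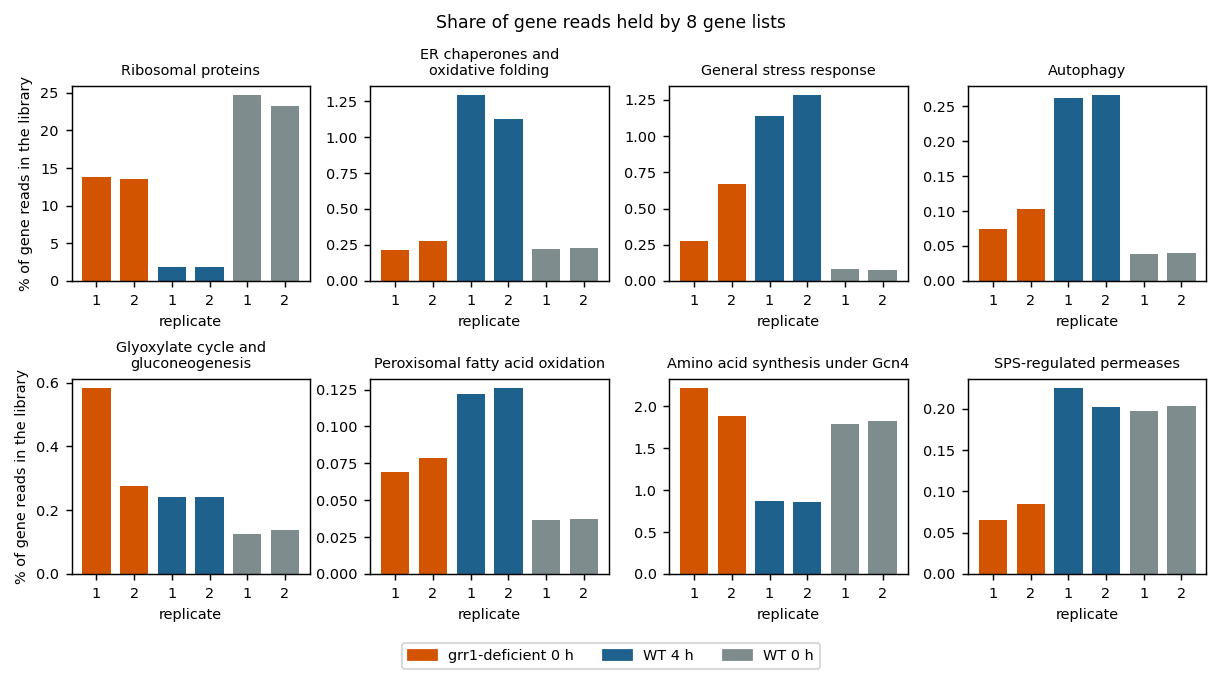
Percent of gene reads (bars, 1 per library) held by 8 gene lists in untreated grr1-deficient cells, WT after 4 h of tunicamycin and untreated WT, with axes from 0. Ribosomal proteins held 13.7% and 13.5% in the mutant, between the WT groups, while ER chaperones and oxidative folding held 0.217% and 0.277%, near untreated WT, and the SPS-regulated list lay below both WT groups.

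The genes that assemble ribosomes behaved alike. Of 55 ribosome biogenesis genes, 54 were higher and none lower in the mutant than in treated WT, and 54 were lower in the mutant than in untreated WT. The medians were 1.60 and -1.18 log2. NSR1, a nucleolar protein, had 293 and 254 CPM in the mutant, against 40.1 and 33.3 CPM in treated WT and 881 and 789 CPM in untreated WT. DBP2, an RNA helicase, had 222 and 169 CPM in the mutant, against 30.5 and 23.1 CPM in treated WT and 661 and 612 CPM in untreated WT. Both stood between the WT groups with no overlap. Of 31 tested translation factor genes, 28 were higher and none lower, led by TEF4, an elongation factor subunit, at 3.22 ± 0.26 log2. Of 32 genes of RNA polymerases I and III, 19 were higher and 6 lower (3 and 2 lower without treated WT replicate 1 or 2), and the polymerase I subunit RPA49 had 139 and 115 CPM in the mutant, against 26.4 and 27.7 CPM in treated WT and 331 and 313 CPM in untreated WT.

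The PAC element, GATGAG, occurs before many ribosome biogenesis genes. It was found on either strand of the 300 bases before the start codon in 51 of 55 of these genes (92.7%), against 19.2% of 5648 promoters. The windows of the 2 named genes are printed as examples, on the gene's strand with the match in capitals, both as the reverse complement. NSR1 is at chrVII:807828-807853 (-) and DBP2 at chrXIV:413474-413499 (+).
NSR1: gcaagggcagCTCATCgcaagaacga
DBP2: tacgccgatgCTCATCgcagaaaatt

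Among 25 general stress genes, a set driven by Msn2 and Msn4, 15 were lower and 2 higher in the mutant than in treated WT, with a median of -1.43 log2. Of the same genes, 16 were higher and none lower in the mutant than in untreated WT, with a median of 2.05. The 2 mutant libraries disagreed in degree, since the list held 0.275% and 0.669% of their gene reads, against 1.14% and 1.28% in treated WT and 0.0809% and 0.0788% in untreated WT. The higher of the 2 was the library with few mitochondrial marker reads, and the part of that in the result was not tested. Without that library 19 genes were lower and 0 higher, and without mutant replicate 1 the counts were 14 and 4.

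HSP12, a small membrane-linked heat shock protein, had 120.2 and 916 CPM in the mutant, against 1724 and 2347 CPM in treated WT and 16.9 and 12.8 CPM in untreated WT. Both mutant libraries lay between the WT groups, far from each other, and the difference from treated WT of -1.98 ± 0.98 log2 was not called (adjusted p = 0.143). Without mutant replicate 2 it was called at -4.08. HSP26, a small cytosolic heat shock protein, had 5.17 and 50.2 CPM in the mutant, against 465 and 554 CPM in treated WT and 6.23 and 5.16 CPM in untreated WT. Its difference of -4.24 ± 1.01 log2 (adjusted p = 0.0196) was lost in 5 of 17 alternatives, the highest adjusted p being 0.108 in a fit of the 2 groups alone, and its value then was -4.20. CTT1, cytosolic catalase, had 7.95 and 16.4 CPM in the mutant, against 67.8 and 75.7 CPM in treated WT and 6.23 and 8.50 CPM in untreated WT. It was 2.59 log2 lower in the mutant than in treated WT (adjusted p = 0.00228), and its difference from untreated WT was not called (0.69). GPX1, a glutathione peroxidase, overlapped treated WT, with 19.7 and 35.3 CPM in the mutant, against 19.0 and 23.5 CPM in treated WT and 4.34 and 4.52 CPM in untreated WT. It was called higher at 0.74 (adjusted p = 0.0127) without mutant replicate 1 and was at -0.10 without replicate 2. The 2 members higher in the mutant, named after their values were seen, were HXK1, a hexokinase, with 506 and 1163 CPM in the mutant against 389 and 421 CPM in treated WT, and TMA10, with 761 and 1181 CPM in the mutant against 511 and 636 CPM in treated WT. HXK1 lost its call in 10 of 17 alternatives and TMA10 in 4, and without mutant replicate 2 they were at 0.32 and 0.41 log2.

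The stress response element AGGGG, bound by Msn2 and Msn4, was present on either strand of the 300-base window in 20 of the 25 genes (80%), against 22.4% of 5648 promoters. The match nearest the start codon is shown for 2 genes whose mutant libraries lay below treated WT and for 1 that overlapped it, on the gene's strand, each as the reverse complement CCCCT in capitals. HSP12 is at chrVI:107056-107080 (+), CTT1 at chrVII:654491-654515 (+) and GPX1 at chrXI:390117-390141 (-).
HSP12: tccggtcgtcCCCCTcttgatctga
CTT1: tttatcgtatCCCCTactgctacac
GPX1: tatttgctttCCCCTtctgttccct

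Storage carbohydrate genes were divided. Of 18 trehalose and glycogen genes, 7 were lower, 3 were higher and 7 had an interval within 2-fold, and 14 were higher in the mutant than in untreated WT. GSY2, glycogen synthase, had 145 and 196 CPM in the mutant, against 228 and 243 CPM in treated WT and 44.5 and 49.0 CPM in untreated WT. Its 95% interval against treated WT was -0.98 to 0.03 log2, and it was called lower in 6 of 17 alternatives, among them without mutant replicate 2 at -0.70 (adjusted p = 0.0483). GAC1, a regulator of glycogen synthesis chosen after its values were seen, averaged 39.0 ± 8.18 CPM in the mutant, against 10.5 ± 1.17 CPM in treated WT and 1.48 ± 0.111 CPM in untreated WT, above both. The trehalose branch lay lower. TPS1, trehalose-phosphate synthase, had 108 and 143 CPM in the mutant, against 539 and 496 CPM in treated WT and 78.1 and 84.5 CPM in untreated WT, and TSL1, its regulatory subunit, had 89.2 and 151 CPM in the mutant, against 604 and 627 CPM in treated WT and 21.2 and 32.0 CPM in untreated WT.

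Of 23 cytosolic and mitochondrial chaperone genes, 16 were lower and 6 higher in the mutant. HSP42, a small heat shock protein, had 59.5 and 85.5 CPM in the mutant, against 589 and 556 CPM in treated WT and 20.5 and 22.8 CPM in untreated WT. SSB1, a ribosome-bound Hsp70, had 4449 and 3454 CPM in the mutant, against 568 and 562 CPM in treated WT and 8779 and 8336 CPM in untreated WT. It was thus 2.81 log2 above treated WT and 1.11 log2 below untreated WT, and SSB2, its near-identical copy, was at 2.38 log2 against treated WT. SSB2 and HSP60 were chosen after their values were seen. The mitochondrial chaperonin gene HSP60 averaged 1657 ± 56.0 CPM in the mutant, against 627 ± 3.81 CPM in treated WT and 682 ± 60.9 CPM in untreated WT. Of 21 oxidative stress genes under Yap1, 11 were lower and 3 higher, and 6 were lower without treated WT replicate 2. TSA1, a peroxiredoxin, averaged 677 ± 61.3 CPM in the mutant, against 2961 ± 15.9 CPM in treated WT and 831 ± 122 CPM in untreated WT. AHP1, another peroxiredoxin, had 8.88 and 24.1 CPM in the mutant, against 171 and 179.6 CPM in treated WT and 158 and 122 CPM in untreated WT, far below both. Of the 21 oxidative stress genes, 10 had an interval within 2-fold, and the list median was -0.40 log2.

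Autophagy genes were mostly below the treated level, and ATG39 was near it. Of 26 genes, 21 were lower and 1 higher in the mutant than in treated WT, with a median of -1.25 log2, and 15 were higher in the mutant than in untreated WT. ATG17, a scaffold of the initiation complex, had 30.5 and 29.5 CPM in the mutant, against 158 and 173 CPM in treated WT and 20.6 and 19.8 CPM in untreated WT. ATG19, the receptor of the cytoplasm-to-vacuole pathway, averaged 68.7 ± 15.3 CPM in the mutant, against 314 ± 12.8 CPM in treated WT and 45.5 ± 0.189 CPM in untreated WT. ATG39, the receptor for autophagy of the nuclear envelope and nearby ER, had 56.8 and 49.7 CPM in the untreated mutant, against 62.7 and 63.7 CPM in treated WT and 3.22 and 2.47 CPM in untreated WT. The mutant libraries lay slightly below treated WT and 4.22 log2 above untreated WT (adjusted p = 1.25e-05), and its 95% interval against treated WT was -0.64 to 0.15 log2. With total counts the difference from treated WT was called at -0.59. The higher member was ATG41, a gene of autophagosome formation chosen after its values were seen, at 0.54 log2, and it was lost in 7 of 17 alternatives. ATG2, a lipid transfer protein of the growing membrane, was also within 2-fold, with 90.5 and 62.9 CPM in the mutant against 89.0 and 93.1 CPM in treated WT. It was called lower with total counts (-0.60) and without mutant replicate 1 (-0.52).

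Of 13 vacuolar hydrolase genes, 5 were lower and 1 higher (0 without treated WT replicate 1 or 2 or mutant replicate 2). AMS1, alpha-mannosidase, had 51.5 and 99.5 CPM in the mutant, against 861 and 829.9 CPM in treated WT and 12.8 and 15.4 CPM in untreated WT. PRB1, proteinase B, had 148 and 198 CPM in the mutant, against 1285 and 1135 CPM in treated WT and 59.5 and 64.6 CPM in untreated WT. Both were intermediate, 3.49 and 2.81 log2 below treated WT, the largest differences in the list. The list median was -0.13 log2, and 7 of the 13 genes had an interval within 2-fold, against 43.8% of all genes tested. PRC1 (-0.13 log2) and APE3 (0.30 log2) were among these 7.

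About as many peroxisomal fatty acid oxidation genes were within 2-fold of treated WT as among all genes. Of 16 genes, 8 had such an interval, against 43.8% of all genes tested, 6 were lower and 1 was higher, and the median was -0.09 log2. Against untreated WT, 10 were higher and none lower in the mutant. POT1, the thiolase of the last step, had 15.8 and 28.6 CPM in the mutant, against 26.7 and 27.9 CPM in treated WT and 0.556 and 0.108 CPM in untreated WT. The mutant libraries overlapped treated WT and both lay above untreated WT, where POT1 had 5 and 1 reads, although the interval against treated WT, -1.16 to 0.53 log2, reached past 2-fold. Without both grr1-deficient replicates 2 it was called lower at -0.77. FOX2, the multifunctional enzyme before it, had 93.8 and 71.9 CPM in the mutant, against 73.9 and 79.2 CPM in treated WT and 14.0 and 14.3 CPM in untreated WT. Its interval of -0.21 to 0.44 log2 lay well within 2-fold, and without both grr1-deficient replicates 2 it was called higher at 0.31. SPS19, the dienoyl-CoA reductase, was short of the treated level, with 7.42 and 11.6 CPM in the mutant, against 39.4 and 41.7 CPM in treated WT and 2.00 and 1.08 CPM in untreated WT. TES1, a thioesterase, was likewise at -1.64 log2.

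Most phosphate response genes were lower in both states than in untreated WT. Of 16 tested genes, 4 were higher and 4 lower than in treated WT, with a median of -0.16 log2, though with total counts 8 were lower. An interval within 2-fold of treated WT was found for 8 genes, which included VTC4, also called lower. The medians against untreated WT were -2.19 for the mutant and -1.67 for treated WT, with 15 and 13 of the 16 lower. VTC2, a subunit of the polyphosphate polymerase complex, had 261 and 214 CPM in the mutant, against 255 and 272 CPM in treated WT and 650.0 and 693 CPM in untreated WT. VTC4, its catalytic subunit, had 179 and 167 CPM in the mutant, against 247 and 259 CPM in treated WT and 856 and 847 CPM in untreated WT. VTC2 was called lower with total counts (-0.50), and VTC4, at -0.55 log2, lost its call without treated WT replicate 2 (adjusted p = 0.0512). The largest differences were those of PHM8, a phosphatase, at -3.57 log2, and PHO89, a sodium-phosphate cotransporter, at 2.18 log2. Against untreated WT, PHM8 was higher in treated WT (2.07 log2) and PHO89 was higher in the mutant (2.32 log2).

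Amino acid synthesis genes under Gcn4 were mostly higher in the untreated mutant than in treated WT. Of 37 genes, 34 were higher and none lower in the mutant than in treated WT, with a median of 1.61 log2. Against untreated WT, 2 were higher, 12 lower and 23 not called, with a median of -0.30. GCN4 itself had 1297 and 766 CPM in the mutant, against 284 and 312 CPM in treated WT and 802 and 805 CPM in untreated WT, a difference from treated WT of 1.79 ± 0.25 log2 (adjusted p = 0.000343). LEU9, an isopropylmalate synthase, had 181 and 117 CPM in the mutant, against 15.8 and 12.2 CPM in treated WT and 438 and 411 CPM in untreated WT. ARG3, ornithine carbamoyltransferase, averaged 155 ± 23.1 CPM in the mutant, against 14.5 ± 0.807 CPM in treated WT and 234 ± 13.7 CPM in untreated WT. LYS9, saccharopine dehydrogenase, was an exception, with 267 and 178 CPM in the mutant against 275 and 294 CPM in treated WT and an interval within 2-fold, although it was called lower with total counts (-0.71).

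The Gcn4 site TGACTC was present on either strand of the 300-base window in 26 of these 37 genes (70.3%), against 7.90% of 5648 promoters. LEU9 is printed because it had the largest difference in the list, from chrXV:522760-522785 (+), with the match in capitals. None of the 4 motifs looked for contains another, and the matches are a description of the letters only.
LEU9: tcgtagtgaaTGACTCatatttttcc

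Of 24 sulfur amino acid genes, 15 were higher and 1 lower in the mutant than in treated WT, with 4 lower with total counts and 2 without mutant replicate 1. SUL1, a sulfate permease, had 472 and 244 CPM in the mutant, against 25.5 and 22.9 CPM in treated WT and 14.8 and 11.8 CPM in untreated WT, so both mutant libraries lay above both WT groups. MMP1, the S-methylmethionine permease, had 211 and 176 CPM in the mutant, against 16.6 and 11.7 CPM in treated WT and 95.5 and 88.4 CPM in untreated WT. MUP1, the methionine permease, chosen after its values were seen, was the lower member, with 62.9 and 33.4 CPM in the mutant, against 408 and 382 CPM in treated WT and 437 and 405 CPM in untreated WT.

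Several of the largest differences set the mutant below both WT groups. HXT1, the low-affinity hexose transporter, had 0.927 and 2.43 CPM in the mutant, against 521 and 512 CPM in treated WT and 491 and 530.5 CPM in untreated WT. The 2 WT groups were at the same level (0.02 log2) and the mutant was -8.34 ± 0.32 log2 from treated WT (adjusted p = 3.02e-06). HXT3, another low-affinity transporter, had 43.1 and 73.9 CPM in the mutant, against 404 and 398 CPM in treated WT and 974 and 877 CPM in untreated WT. STD1, a regulator of the Rgt1 repressor, averaged 7.21 ± 0.636 CPM in the mutant, against 42.2 ± 0.704 CPM in treated WT and 60.3 ± 0.388 CPM in untreated WT. Its paralog MTH1 averaged 24.0 ± 1.39 CPM in the mutant, against 18.3 ± 0.640 CPM in treated WT, and was within 2-fold, although coding-region reads called it higher (0.52). MIG2, a glucose repressor, had 4 and 0 reads in the mutant libraries, against 164 and 147 reads in treated WT, and was 46.0-fold lower with an exact 95% counting interval of 17.8 to 169.7. Its relative MIG3 averaged 1.11 ± 0.814 CPM in the mutant, against 19.2 ± 0.504 CPM in treated WT.

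The high-affinity transporters HXT6 and HXT7 were the reverse. HXT7 had 848 and 1648 CPM in the mutant, against 57.1 and 53.1 CPM in treated WT and 167 and 114 CPM in untreated WT. HXT6, at 4.49 log2, is a near-identical copy, so the split between them is uncertain. Over the 19 tested hexose transport and sensing genes, 9 were lower and 4 higher in the mutant. HXT13, chosen after its values were seen, was not called, with 2.65 and 67.6 CPM in the mutant against 0.186 and 0.360 CPM in treated WT, most of it in replicate 2, the library with few mitochondrial marker reads. It was called with the replicate block (6.99 log2, adjusted p = 4.38e-05), by DESeq2 (7.02) and without both grr1-deficient replicates 2 (3.23).

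The list of the SPS amino acid sensing pathway held permeases, sensor components such as the protease SSY5 and the transcription factors STP1 and STP2. Of its 13 genes, 8 were lower and 1 higher in the mutant than in treated WT, with a median of -1.23 log2, and 7 were lower in the mutant than in untreated WT. BAP3, a branched-chain amino acid permease, had 0.927 and 0.934 CPM in the mutant, against 106 and 92.2 CPM in treated WT and 248 and 242 CPM in untreated WT, a difference from treated WT of -6.72 ± 0.21 log2 (adjusted p = 1.10e-06). AGP1, a broad-range permease, had 11.8 and 21.3 CPM in the mutant, against 269 and 227 CPM in treated WT and 393 and 413 CPM in untreated WT. PTR2, the peptide transporter, chosen after its values were seen, was the higher member, with 33.4 and 32.7 CPM in the mutant, against 7.46 and 5.76 CPM in treated WT and 31.3 and 31.8 CPM in untreated WT.

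For several genes that glucose represses, the mutant libraries differed from each other. Of 20 glyoxylate cycle and gluconeogenesis genes, 7 were higher and 1 lower than in treated WT, against 29.8% and 28.5% of all genes tested. Without mutant replicate 2, 15 were higher and 1 lower, and without replicate 1 the counts were 6 and 2. Without treated WT replicate 1 or 2, 4 were higher. ICL1, isocitrate lyase, had 669 and 23.0 CPM in the mutant, against 20.0 and 20.1 CPM in treated WT and 15.9 and 15.3 CPM in untreated WT. MLS1, malate synthase, had 353 and 5.23 CPM in the mutant, against 7.92 and 7.84 CPM in treated WT and 1.45 and 0.861 CPM in untreated WT. For both, replicate 1 was far above every WT library and replicate 2 was near treated WT, and neither was called (adjusted p = 0.111 and 0.14). Both were called without mutant replicate 2, at 5.06 and 5.49 log2, and by DESeq2, at 4.13 and 4.53. JEN1, a lactate and pyruvate transporter, was high in both mutant libraries at 1468 and 94.3 CPM, against 14.1 ± 2.80 CPM (mean ± SD) in treated WT and 3.78 and 2.91 CPM in untreated WT. Its difference of 5.80 ± 1.57 log2 (adjusted p = 0.0324) was lost in 7 of 17 alternatives, with an adjusted p of up to 0.154. ACS1 was the 1 list member with an interval within 2-fold of treated WT (0.14 log2). It had 31.0 and 36.8 CPM in the mutant, against 31.3 and 30.2 CPM in treated WT and 10.3 and 10.0 CPM in untreated WT. Against untreated WT, 14 list members were higher and 1 lower in the mutant (median 3.45 log2), and 7 and 1 in treated WT (2.01). ADR1, an activator of glucose-repressed genes, chosen after its values were seen, was the member lower than in treated WT, with 278 and 153 CPM in the mutant, against 729 and 749 CPM in treated WT and 26.1 and 32.1 CPM in untreated WT.

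Respiratory genes also differed between the mutant libraries. Of 49 tested TCA cycle and respiratory chain genes, 6 were higher and 1 lower in the mutant than in treated WT. Without mutant replicate 2, 21 were higher and 2 lower, and without replicate 1, 5 and 3. The list held 3.40% and 1.58% of gene reads in the mutant libraries, against 1.92% and 1.98% in treated WT and 0.785% and 0.768% in untreated WT. Against untreated WT, 14 were higher and 0 lower in the mutant (median 1.18 log2), and 7 and 1 in treated WT (0.68). LSC1, the 1 member within 2-fold of treated WT, had 419 and 296 CPM in the mutant, against 346 and 343 CPM in treated WT and 191 and 194 CPM in untreated WT. CYC1, cytochrome c, had 1028 and 450.0 CPM in the mutant, against 103 and 118 CPM in treated WT and 304 and 267 CPM in untreated WT, and was higher in both mutant libraries. IDH2, a subunit of isocitrate dehydrogenase and also a target of retrograde signalling, had 1636 and 1322 CPM in the mutant, against 476 and 504 CPM in treated WT and 433 and 398 CPM in untreated WT. ACO1, aconitase, averaged 2453 ± 646 CPM in the mutant, against 867 ± 11.4 CPM in treated WT. LSC2, a subunit of succinyl-CoA ligase chosen after its values were seen, was the lower member at -1.20 log2. The 8 genes of the mitochondrial genome gave no call, with a median of 0.48 log2. Their median was -10.5 without mutant replicate 1 and 1.49 without replicate 2, and all 8 were called higher without both grr1-deficient replicates 2.

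In glycolysis, 5 of 22 genes were higher and 7 lower in the mutant, and 2 and 4 without treated WT replicate 2 (3 higher without replicate 1). Among all genes tested, 29.8% were higher and 28.5% lower. The list's median was 0.08 log2, and it was 0.24 without mutant replicate 1 and -0.32 without mutant replicate 2. The list held 4.77% and 8.75% of gene reads in the mutant libraries, against 7.64% and 7.50% in treated WT. TDH1, a glyceraldehyde-3-phosphate dehydrogenase of stressed cells, averaged 237 ± 219 CPM in the mutant, against 2031 ± 183 CPM in treated WT and 126 ± 5.60 CPM in untreated WT. TDH3, the main growth isozyme, had 9323 and 11546 CPM in the mutant, against 9308 and 8969 CPM in treated WT and 23069 and 20526 CPM in untreated WT. TDH3 in the mutant was thus near treated WT and below untreated WT, while TDH1 was below treated WT by 3.10 log2 (adjusted p = 0.012). The TDH1 call was lost in a fit of the 2 groups alone (adjusted p = 0.0606) and without treated WT replicate 2 (adjusted p = 0.0504).

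The G1 cyclin genes CLN1 and CLN2 were lower in the mutant than in treated WT. CLN2, a G1 cyclin whose protein Grr1 targets, had 58.0 and 52.3 CPM in the mutant, against 143 and 133 CPM in treated WT and 86.5 and 104 CPM in untreated WT. CLN1, its paralog, had 72.3 and 71.9 CPM in the mutant, against 132 and 119.5 CPM in treated WT and 69.6 and 76.3 CPM in untreated WT, and its difference from untreated WT was -0.02 log2 (adjusted p = 0.921). PCL1, a cyclin of the Pho85 kinase, averaged 37.2 ± 5.99 CPM in the mutant, against 185 ± 7.02 CPM in treated WT. CLB6, an S-phase cyclin, was the reverse, with 16.3 and 17.4 CPM in the mutant, against 2.80 and 4.77 CPM in treated WT and 24.0 and 21.2 CPM in untreated WT. Over 20 genes of G1 and Start, 8 were higher and 6 lower, against 29.8% and 28.5% of all genes tested. Fewer were higher without mutant replicate 1 or treated WT replicate 2.

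Most genes of later phases were higher in the mutant than in treated WT. Of 17 G2/M genes, 11 were higher and 1 lower in the mutant than in treated WT (0 lower without treated WT replicate 1 or 2 or mutant replicate 2, and 2 without mutant replicate 1), with HOF1, a cytokinesis protein, at 1.70 ± 0.23 log2. Of 12 genes of daughter cell separation, 11 were higher and 1 lower, and EGT2 averaged 93.4 ± 23.5 CPM in the mutant, against 17.9 ± 2.64 CPM in treated WT and 289 ± 46.9 CPM in untreated WT. Of 10 histone genes, 4 were higher, 1 was lower (0 when any 1 of the untreated mutant or WT libraries was left out) and 6 had an interval within 2-fold, with HTB2, a histone H2B gene, at 83.1 ± 18.0 CPM in the mutant, against 19.1 ± 1.35 CPM in treated WT and 215 ± 8.89 CPM in untreated WT. STE2, the pheromone receptor of MATa cells, had 119.8 and 159 CPM in the mutant, against 48.6 and 48.4 CPM in treated WT and 537 and 533 CPM in untreated WT. Like EGT2, it lay between the 2 WT groups. Its own list, of 22 MATa-specific and pheromone genes, had 5 higher and 8 lower than treated WT, with a median of -0.27 log2.

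The 10 largest called differences in each direction, among genes with no overlap and more than 10 reads in each group, included genes of these lists and others. Beside genes already described, the higher ones were YIG1, HPF1, RGI2, MAL12 and FIT3. HPF1, a cell wall mannoprotein, had 36.8 and 30.6 CPM in the mutant, against 0.746 and 0.540 CPM in treated WT and 15.9 and 21.4 CPM in untreated WT, so treated WT was the group that stood apart. For RGI2, a gene of respiratory growth, the mutant stood apart, with 18.0 and 19.0 CPM in the mutant, against 0.746 and 0.450 CPM in treated WT and 0.445 and 0 CPM in untreated WT. MAL12, a maltase with a near-identical copy, averaged 149.9 ± 64.3 CPM in the mutant, against 5.70 ± 1.30 CPM in treated WT. YIG1 and FIT3 were at 5.84 and 4.45 log2.

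Beside genes already described, the lower ones were YET2, ROQ1, ARI1, ARO10 and YGL177W. YET2, a homolog of an ER membrane protein, had 7.42 and 7.47 CPM in the mutant, against 188 and 193 CPM in treated WT and 3.33 and 3.87 CPM in untreated WT. ROQ1, which redirects a ubiquitin ligase towards misfolded proteins under stress, had 6.49 and 11.6 CPM in the mutant, against 138 and 144 CPM in treated WT and 2.89 and 3.44 CPM in untreated WT. Both were above untreated WT, by 1.04 and 1.48 log2, and far below treated WT. ARO10, a decarboxylase of amino acid breakdown, averaged 7.79 ± 6.79 CPM in the mutant, against 228 ± 20.0 CPM in treated WT and 3.34 ± 0.773 CPM in untreated WT. ARI1, an aldehyde reductase, had 3.05 and 13.8 CPM in the mutant, against 246 and 240.0 CPM in treated WT and 92.4 and 95.4 CPM in untreated WT, below both. YGL177W was at -4.78 log2.

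**Figure D4:**
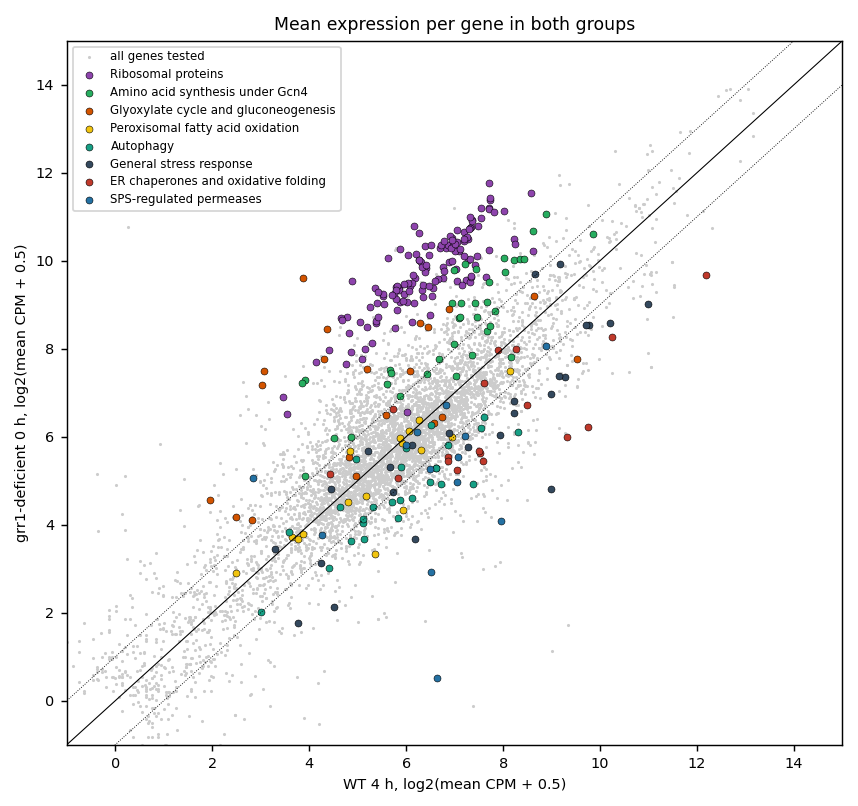
Mean expression of each tested gene in untreated grr1-deficient cells (y axis) against WT after 4 h of tunicamycin (x axis), both as log2 of mean CPM plus 0.5, with 8 gene lists coloured, the line of equality solid and 2-fold lines dotted. Ribosomal proteins lie above the 2-fold band except for RPL15B, ER chaperones mostly below it, and peroxisomal fatty acid oxidation around the line of equality.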

How the data were processed

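RNA was measured in 8 libraries of lysates made in ribosome profiling buffer, 2 biological replicates per group by the series' design, and 4 libraries make the main comparison. The deposited files hold raw counts of reads per gene, and per the file headers each read of 25 to 100 nt was counted at 1 position, 25 nt from its end. Build R64 and the tools STAR 2.7.3a, Bowtie2 2.3.5, cutadapt 2.6 and DESeq2 are listed per the submitters' processing notes, with no roles. Strand handling and how multi-mapping reads were handled are not given in the sources used here.

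Exon counts were fitted with edgeR 4.0.16 (R 4.3.3), with TMM scaling, a filter on low counts, 1 term per group over all 8 libraries, robust quasi-likelihood tests that were two-sided, and Benjamini-Hochberg adjustment over 5855 genes at 0.05. The smallest groups have 2 libraries. A gene counted as within 2-fold where its 95% interval lay inside -1 to 1 log2. That interval was the log2 difference plus or minus the derived SE times a t quantile at the test's degrees of freedom. The fit was also run on counts simulated from its own estimates of spread. Those simulated libraries were independent, so this run cannot show how the fit handles libraries that deviate together. Of 6696 regions, 6008 matched a RefSeq symbol and 841 were not tested; 10 members of the lists were among these. Counting floors of 3 reads were 0.270 to 0.560 CPM, and these and the counting intervals cover counting error only.

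The members and lists were chosen with earlier results of these data known. Named genes were the 10 largest called differences in each direction with no overlap and more than 10 reads in each group, up to 4 per list by size or level, and a set of genes always given; other genes are marked as chosen after their values were seen. Promoters were read from the RefSeq R64 genome. The authors' deposited comparison tables were not used. Alternatives were 16 planned settings and 1 added after seeing the data, without both grr1-deficient replicates 2.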

Additional observations from a re-analysis of the deposited data

How the results depend on the processing

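Of 122 genes followed through 17 alternatives, 90 kept their direction and their side of the threshold in each alternative that gave a value, and 32 did not. Calls higher and lower in the untreated mutant than in treated WT ranged from 1351 to 1857 and from 1184 to 1731 when 1 library was left out, and genes within 2-fold from 2016 to 2707. Treated against untreated WT gave 1464 to 2046 higher and 1564 to 2080 lower, and untreated mutant against untreated WT 804 to 1389 higher and 1057 to 1762 lower. The 804 came without untreated WT replicate 2 and the 1057 without replicate 1. DESeq2 called 1759 genes higher and 1519 lower in the mutant than in treated WT. Without both mutant replicates 2, an alternative added after seeing the data, these counts were 2171 and 1970.

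Total counts in place of TMM moved treated against untreated WT to 3340 higher and 957 lower (77.7% of calls higher, against 49.6%), and untreated mutant against untreated WT to 2106 and 646 (76.5%, against 45.2%). For the mutant against treated WT, 33.3% of calls were then higher, against 51.1%. Total counts reversed FOX2 (-0.24) and TDH3 (-0.13). Coding-region reads reversed HAC1 (0.024). Leaving out treated WT replicate 1 reversed HAC1 (0.016), and replicate 2 reversed UBP3 (0.013). Without mutant replicate 1, GFA1 (0.15), POT1 (0.074), FOX2 (-0.082) and MLS1 (-0.58) reversed. Without mutant replicate 2, UBP3 (0.20), HAC1 (0.061) and GPX1 (-0.105) did, and without both mutant replicates 2, UBP3 (0.22), HAC1 (0.079), GPX1 (-0.0865), ATG2 (0.012) and VTC2 (0.0087). With the other mutant library left out, that is without replicate 1, UBP3 was -0.31, HAC1 -0.18 and GPX1 0.74, and without replicate 2, GFA1 was -0.67, POT1 -0.79, FOX2 0.30 and MLS1 5.49. None of these genes was called in the fit reported, and the cause was not tested.

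Same-numbered libraries of the untreated mutant and treated WT did not deviate together (r = 0.02 across 5855 genes, which are not independent replicates), so the numbers were not taken as pairs. Those of the untreated and treated mutant did deviate together (r = 0.80). Both mutant replicates 2 had few mitochondrial marker reads (43 untreated, 3 treated). The fit reported took all 8 libraries as independent, so its SE and adjusted p do not allow for this shared deviation. With the replicate block, 1774 genes were higher and 1680 lower, and 3347 calls were shared with the fit without it. With 2 libraries per group, small differences may go uncalled, and genes at few reads are limited by depth.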

Other observations

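Lipid, iron and sporulation genes were also measured. Their counts are to be read against 29.8% higher and 28.5% lower among all genes tested. Of 13 genes of inositol and phospholipid synthesis, 6 were lower and 2 higher in the untreated mutant than in treated WT. INO1, inositol-phosphate synthase, chosen after its values were seen, had 725 and 87.2 CPM in the mutant, against 1742 and 2254 CPM in treated WT and 50.6 and 42.8 CPM in untreated WT, and its difference of -2.30 ± 0.93 log2 was not called over all libraries (adjusted p = 0.0856). It was called lower by edgeR without mutant replicate 1 (-4.51), without replicate 2 (-1.46), without both grr1-deficient replicates 2 (-1.44) and with total counts (-2.74), and by DESeq2 (-2.28). OPI3, a phospholipid methyltransferase, averaged 181 ± 14.2 CPM in the mutant, against 429 ± 2.64 CPM in treated WT. Of 22 ergosterol genes, 5 were higher and 7 lower (12 lower with total counts), with ERG4, the enzyme of the last step, at 351 ± 14.6 CPM in the mutant, against 95.3 ± 11.5 CPM in treated WT and 321 ± 34.8 CPM in untreated WT.

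Of 21 iron regulon genes, 11 were higher and 2 lower in the mutant (5 lower with total counts). TIS11, an mRNA-binding regulator chosen after its values were seen, was among the lower, with 21.2 and 14.9 CPM in the mutant, against 141 and 133 CPM in treated WT and 14.2 and 10.5 CPM in untreated WT. Of 16 tested meiosis and sporulation genes, 3 were higher and 4 lower. None was higher without treated WT replicate 1 or 2, and 1 was without mutant replicate 1 or with total counts. HOP1, a meiotic chromosome axis protein, had 5.03 and 15.5 CPM in the mutant, against 81.6 and 94.9 CPM in treated WT and 4.78 and 3.98 CPM in untreated WT. SPS4 was at 1.52 log2 and was not called without mutant replicate 1 (0.72) or treated WT replicate 1 or 2 (1.51 and 1.53). Of 24 genes under nitrogen catabolite repression, 7 were higher and 5 lower, against 29.8% and 28.5% of all genes tested. Of 22 MATa-specific and pheromone genes, 5 were higher and 8 lower. Of 10 tested retrograde targets, 6 were higher and 2 lower, and fewer were lower without treated WT replicate 1 or 2 or mutant replicate 1. Without treated WT replicate 2, 3 inositol genes were lower, 3 ergosterol genes higher and 4 lower, 2 meiosis genes lower, and 2 MATa-specific genes higher and 5 lower. Without treated WT replicate 1, 3 ergosterol and 2 meiosis genes were lower and 2 MATa-specific genes higher. Without mutant replicate 2, 5 inositol genes were higher, and without replicate 1, 2 meiosis genes were lower, 1 iron gene was lower and 3 MATa-specific genes were higher.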
